A study of Gallus gallus with 6 samples.

Results

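The 10 genes described here are the Notch receptors NOTCH1 and NOTCH2, the ligands JAG1 and JAG2, the fringe enzymes LFNG, MFNG and RFNG, the DNA-binding protein RBPJ, the ubiquitin ligase DTX1 and the target gene HEY1. They were taken by gene name from the annotation deposited with the data. Each name belongs to 1 gene ID, and the 10 genes hold 19 of the 28756 transcripts and 10 of the 16963 genes in the files. Chicken (Gallus gallus) ovarian adenocarcinoma cells, called COVCAR, had been grown from the ascites of affected birds as 3 primary lines, C27, C29 and C30. Each line was grown to confluence on gelatin-coated flasks and was then separated by cell sorting into an ALDH+ and an ALDH- fraction, with and without activity of aldehyde dehydrogenase (ALDH). Total RNA of each fraction was sequenced, which gave 1 library per line and fraction, 6 in all, with 3 lines in each group. No treatment or genetic change separates the groups, and each pair of fractions was sorted from 1 line. Where 3 values are given for a fraction, they are in the order C27, C29, C30. Whether the lines come from separate birds is not given in the sources used here, so p-values speak for these lines only. Without the line in the model, they set the difference against the spread between lines within a fraction. With the line in the model, they set it against how far that difference varies from line to line.

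Notch receptors are cell-surface proteins that are activated by ligands on a neighbouring cell. Binding leads to cleavage of the receptor, and the freed intracellular domain enters the nucleus, where it joins RBPJ on DNA and switches on genes such as those of the HES and HEY families. Fringe enzymes add a sugar to the receptor and so change which ligand it responds to, and Deltex proteins such as DTX1 act on the receptor's traffic inside the cell. Jagged ligands and Notch receptors have been studied widely in ovarian cancer and in tumour cells with stem-like behaviour, while RBPJ also serves Notch signalling in blood cells.

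The libraries held 22170788 to 26747453 estimated counts, of which the 10 genes took 0.0338 to 0.051%. On the first principal component (57.3% of the variance) the ALDH+ libraries lay between 57.4 and 65 and the ALDH- libraries between -95 and -28.7, with C30 farthest out in the ALDH- group. Of the epithelial genes, the keratin genes KRT7 (12626 to 87579 counts per library) and KRT18 (729 to 3471 counts) were present in every library. CDH1 had 87 to 994 counts in ALDH- and 22 to 38 in ALDH+ libraries, EPCAM had 1 to 45 counts, and CLDN3, ESRP1 and OVOL2 had 6 counts or fewer each. The collagen gene COL1A1 was abundant in both fractions (178706 to 590244 counts). Macrophage markers differed between the fractions. The 20 marker genes measured summed to 4040 to 5812 TPM (a level corrected for transcript length and library size) in the ALDH- libraries and to 180 to 405 TPM in the ALDH+ libraries.

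RBPJ, MFNG and DTX1 fell in ALDH+ cells, and JAG1 and JAG2 rose when each line was compared with itself. All 10 genes passed the filter on low counts. MFNG and DTX1, with 4 counts or fewer in each ALDH+ library, passed it through the ALDH- group alone. The filter thus favoured a fall for these genes, and their calls are not independent of it. With no filter on low counts, edgeR gave adjusted p = 0.00831 for MFNG and 0.0442 for DTX1. Without the line in the model, 3 of the 10 genes were called and all 3 were lower in ALDH+ (edgeR, Benjamini-Hochberg adjusted p under 0.05). Of all 12811 genes tested, 6.14% were called, 5.3% lower and 0.835% higher. With the line as a block, which compares the 2 fractions of each line, 5 of the 10 were called, 2 higher and 3 lower, against 13.5% of all genes (5.92% higher, 7.6% lower). In 6 of the 10 genes the ALDH+ and ALDH- libraries did not overlap in CPM (counts scaled to library size with TMM factors), 2 above and 4 below. This was so in 25.8% of all genes tested (11.2% above, 14.6% below). The same 6 genes did not overlap in TPM, where the share of all genes was 27.6% (19.9% above, 7.7% below). In 4 genes (NOTCH2, JAG1, JAG2 and HEY1) the ALDH+ library was the higher in all 3 lines, and in 4 (LFNG, MFNG, RBPJ and DTX1) the lower, against 28.4 and 27.7% of all genes.

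**Figure D1:**
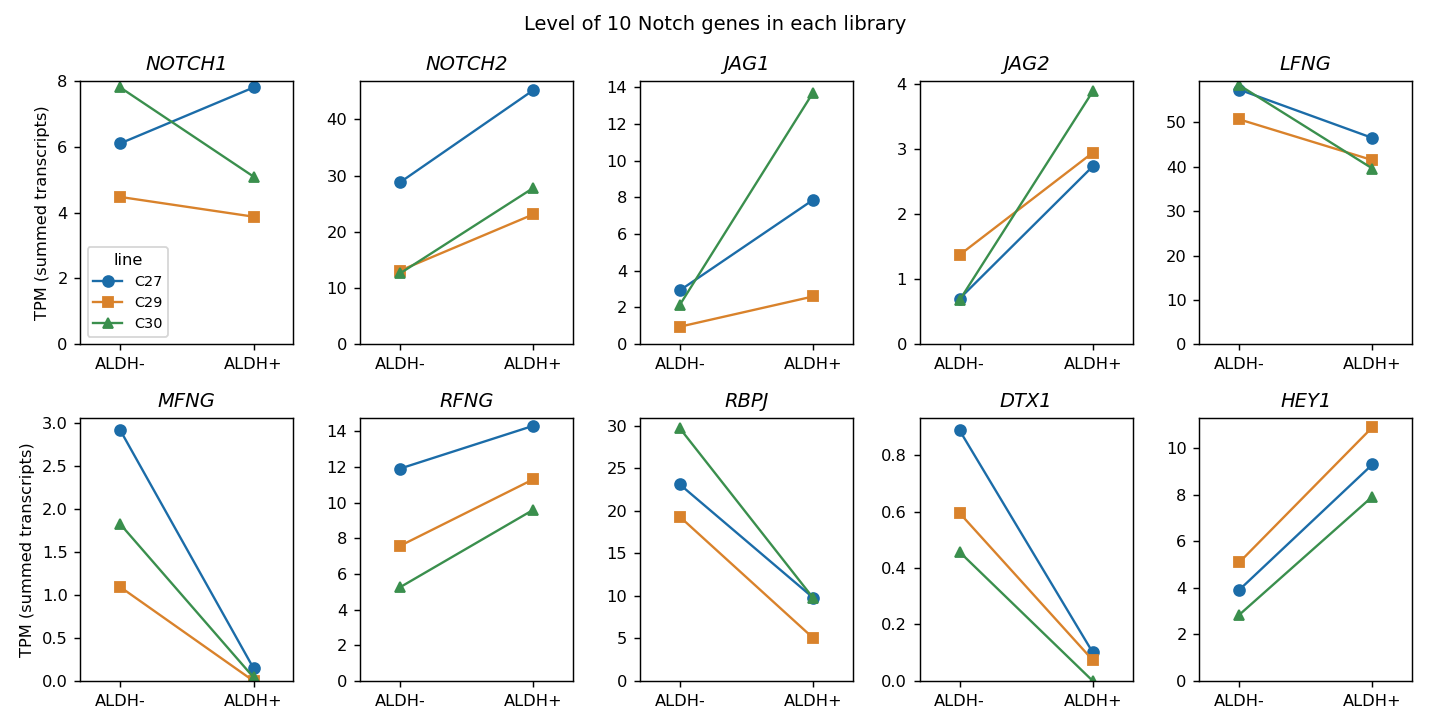
Level of each of the 10 genes in TPM (y axis, linear from 0, with its own scale per gene) in the ALDH- and ALDH+ library of each line; a line joins the 2 libraries of C27 (circles), C29 (squares) or C30 (triangles). RBPJ, MFNG and DTX1 fall in each line, while JAG1, JAG2 and HEY1 rise; RFNG and NOTCH2 rise on this scale, on which the median gene also rises by 0.36 on the log2 scale.

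Compared by TPM, LFNG was the most abundant of the 10 genes in both fractions, at 55.5 ± 4.2 TPM in ALDH- and 42.5 ± 3.55 TPM in ALDH+ cells (mean ± SD, n = 3). In ALDH- cells RBPJ (24.0 ± 5.23 TPM), NOTCH2 (18.2 ± 9.23 TPM), RFNG (8.24 ± 3.38 TPM), NOTCH1 (6.13 ± 1.67 TPM) and HEY1 (3.95 ± 1.12 TPM) came next, followed by JAG1 (2.0 ± 0.993 TPM), MFNG (1.94 ± 0.912 TPM), JAG2 (0.915 ± 0.396 TPM) and DTX1 (0.647 ± 0.22 TPM). Among these neighbours only LFNG over RBPJ and NOTCH2 over RFNG were separated without overlap between libraries. In ALDH+ cells NOTCH2 stood second at 32.0 ± 11.6 TPM. Its libraries overlapped with those of LFNG, though LFNG was the higher in each line. NOTCH2 was followed by RFNG (11.7 ± 2.37 TPM), HEY1 (9.36 ± 1.47 TPM), RBPJ (8.21 ± 2.73 TPM), JAG1 (8.07 ± 5.58 TPM) and NOTCH1 (5.6 ± 2.01 TPM). RFNG, HEY1, RBPJ and JAG1 each overlapped with the next in that order. JAG2 (3.18 ± 0.612 TPM) lay below NOTCH1 without overlap, and MFNG (0.0632 ± 0.0766 TPM) and DTX1 (0.0581 ± 0.0521 TPM) were close to 0.

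Neither receptor was called on its own. NOTCH2, the more abundant receptor, stood at 207, 113 and 137 CPM in ALDH- and at 263, 170 and 175 CPM in the ALDH+ libraries. The groups overlapped, C27 was highest in both fractions, and within each line the ALDH+ library was higher. The log2 change was 0.41 (SE 0.30, adjusted p = 0.479 in edgeR), and 0.43 with the block (SE 0.20, adjusted p = 0.195). NOTCH1 stood at 44.9, 39.7 and 86.6 CPM in ALDH- and at 46.3, 29.4 and 32.7 CPM in ALDH+ libraries. Its ALDH- library of C30 lay above the other 5 in CPM, but in TPM it equalled the ALDH+ library of C27, at 7.81. The log2 change of NOTCH1 was -0.66 (SE 0.35, adjusted p = 0.337), -0.60 with the block (adjusted p = 0.23), and -0.17 without C30 ALDH- (adjusted p = 0.9).

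The mix of receptors was nearly the same in the 3 ALDH+ libraries and differed widely among the ALDH- libraries. NOTCH2 made up 85.3, 85.6 and 84.5% of the summed receptor TPM in the ALDH+ libraries, against 82.5, 74.5 and 61.8% in the ALDH- libraries. The groups did not overlap, and C27 differed least between its fractions. As a log2 ratio of NOTCH1 to NOTCH2 in TPM (pseudocount 0.01), the mean was -1.49 ± 0.77 in ALDH- and -2.51 ± 0.06 in ALDH+ cells (SD, n = 3). The difference of -1.02 had p = 0.1 in a two-sided exact permutation test, which is the smallest value that 3 against 3 libraries allow. Within C27, C29 and C30 it was -0.29, -1.03 and -1.75. It was 1 of 5 ratios tested among the 10 genes.

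**Figure D2:**
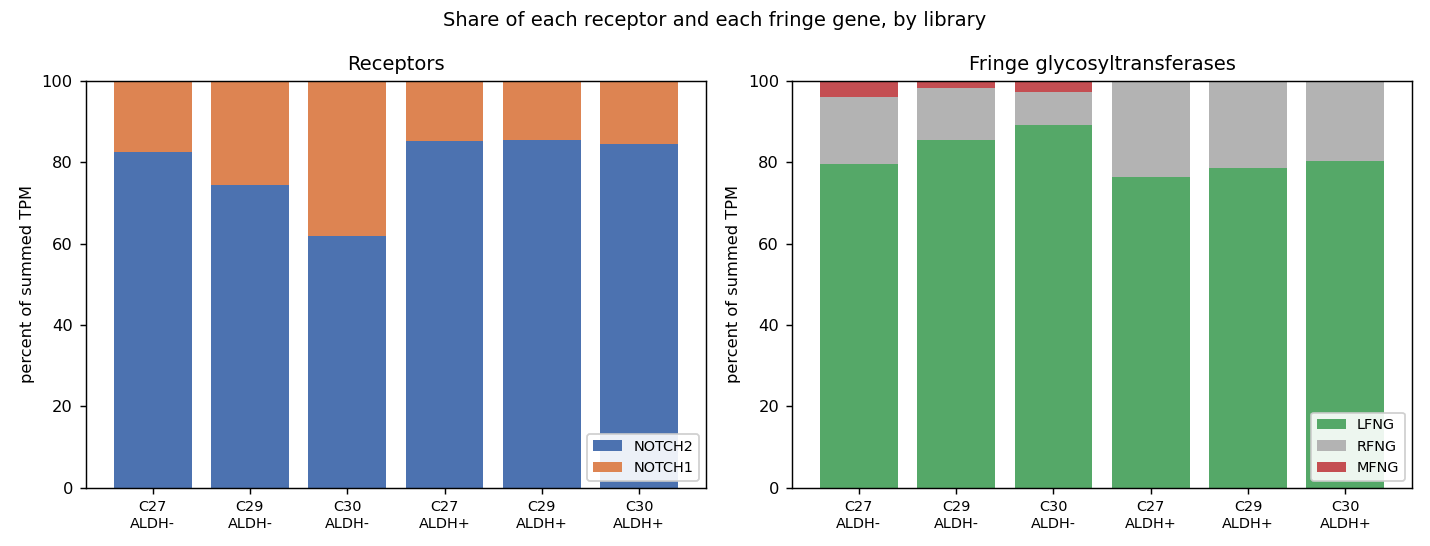
Share of NOTCH2 and NOTCH1 in the summed receptor TPM (left) and of LFNG, RFNG and MFNG in the summed fringe TPM (right), in percent, 1 bar per library. NOTCH2 holds 84.5 to 85.6% in the ALDH+ libraries and 61.8 to 82.5% in the ALDH- libraries, and MFNG is visible only in the ALDH- bars, where it holds 1.84 to 4.02%.

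Both Jagged ligands were higher in ALDH+ cells in all 3 lines, and edgeR called them with the line in the model and not without it. DESeq2 without the line called JAG2 (adjusted p = 0.0123) and not JAG1 (0.0705), with 10.3% of all genes called. JAG1 stood at 7.69, 3.03 and 8.52 CPM in ALDH- and at 16.8, 7.05 and 31.7 CPM in the ALDH+ libraries. C29 was lowest in both fractions, and its ALDH+ library lay within the ALDH- range, so the groups overlapped. JAG1 changed by 1.53 on the log2 scale (SE 0.59, adjusted p = 0.197) without the block and rose by 1.42 with it (SE 0.27, adjusted p = 0.0178). JAG2 stood at 1.97, 4.68 and 2.89 CPM in ALDH- and at 6.28, 8.54 and 9.61 CPM in ALDH+ libraries, with no overlap. JAG2 changed by 1.36 (SE 0.42, adjusted p = 0.113) without the block and rose by 1.42 with it (SE 0.31, adjusted p = 0.0286). With the block, the calls of both ended without C27 (adjusted p = 0.0542 for JAG1 and 0.127 for JAG2) or without C30 (0.0573 and 0.085). They held without C29 (0.0056 and 0.0075). Of all genes, 7.92% were called without C27, 9.6% without C30 and 18.1% without C29, so calls were also most frequent without C29 over all genes.

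The ligands rose side by side, and their balance kept to the line. JAG1 exceeded JAG2 in TPM in both fractions of C27 (4.19 times in ALDH- and 2.87 times in ALDH+) and of C30 (3.16 and 3.54 times). In C29 it was below JAG2 in both (0.694 and 0.885 times). The log2 ratio did not move in 1 direction (-0.53, 0.35 and 0.18 in C27, C29 and C30, exact permutation p = 1). Receptor over ligand, in summed TPM, was 9.64, 7.54 and 7.27 in the ALDH- libraries and 5, 4.87 and 1.87 in the ALDH+ libraries, so every ALDH+ library lay below every ALDH- library. This ratio was not tested. Of the Delta ligands, DLL1 had 13, 4 and 3 counts in ALDH- and 23, 36 and 34 in ALDH+ libraries (log2 change 2.14, SE 0.62, adjusted p = 0.0962, and 0.0768 with the block). DLL4 had 16 counts or fewer in every library and was not tested.

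**Figure D3:**
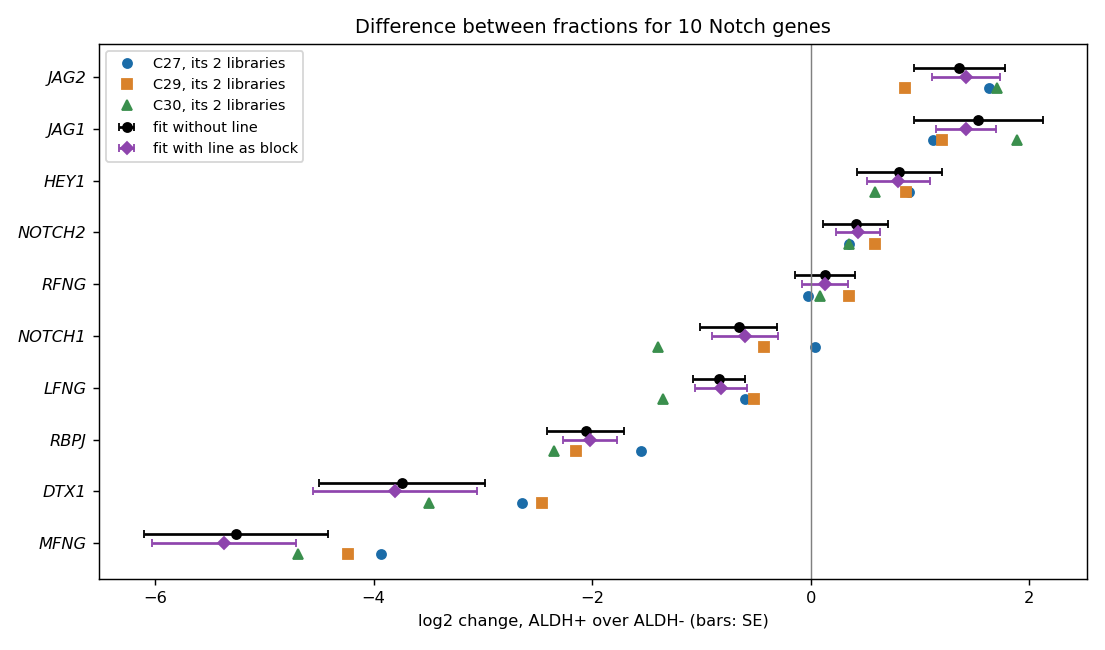
Log2 change of the 10 genes, ALDH+ over ALDH- (x axis). Black circles give the edgeR fit without the line and purple diamonds the fit with the line as a block, both with SE bars; the coloured marks give the difference between the 2 libraries of C27, C29 and C30 in log2 CPM with a prior count of 2, which draws low genes such as MFNG and DTX1 towards 0. Each SE was computed from the log2 change and the F value of the test. RBPJ, DTX1 and MFNG lie below 0 in every line and JAG1 and JAG2 above, while NOTCH1 spans 0.04 in C27 to -1.40 in C30.

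Of the fringe genes, edgeR called MFNG in both fits and neither LFNG nor RFNG. MFNG (manic fringe) had 85, 32 and 62 counts in the ALDH- libraries and 4, 0 and 1 in the ALDH+ libraries. All ALDH+ libraries were thus at or near 0. MFNG fell by 5.26 on the log2 scale (SE 0.84, adjusted p = 0.00884) and by 5.37 with the block (adjusted p = 0.00321), a fitted value that depends on how so few counts are handled. The call of MFNG held in all 20 alternatives in which it was tested (adjusted p up to 0.0385). These alternatives draw on the same libraries and are not independent support. Most use the filter that MFNG passed through the ALDH- group alone. LFNG (lunatic fringe) stood at 111, 119 and 172 CPM in ALDH- and at 73.2, 82.9 and 67.3 CPM in ALDH+ libraries, with no overlap. It did not pass in edgeR, at a log2 change of -0.84 (SE 0.24, adjusted p = 0.0917, and 0.0643 with the block). It was called in DESeq2 with the block (0.0411, with 16.3% of all genes called). In edgeR with the block it was called when C29 was left out (0.0275, with 18.1% of all genes called). RFNG (radical fringe) stood at 32.0, 24.6 and 21.4 CPM in ALDH- and at 31.2, 31.3 and 22.6 CPM in ALDH+ libraries (log2 change 0.13, SE 0.27, adjusted p = 0.823, and 0.706 with the block). Its groups overlapped almost fully.

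LFNG remained the main fringe transcript throughout, at 79.5, 85.4 and 89.2% of the summed fringe TPM in ALDH- and 76.3, 78.6 and 80.4% in ALDH+ libraries. RFNG took 16.5, 12.8 and 8.02% in ALDH- and 23.5, 21.4 and 19.5% in ALDH+ libraries, without overlap. The log2 share of RFNG differed by 0.84 (exact permutation p = 0.1), that of LFNG by -0.11 (p = 0.2) and that of MFNG by -5.11 (p = 0.1). The MFNG value depends on the pseudocount, since its share is 0 in C29 ALDH+, and it ran from -5.96 to -4.07 with 1 library left out. Within lines the RFNG share was higher in ALDH+ by 0.51, 0.75 and 1.28.

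RBPJ, the protein through which the receptors act on DNA, fell in ALDH+ cells. It stood at 46.7, 46.1 and 88.4 CPM in ALDH- and at 15.9, 10.3 and 17.3 CPM in the ALDH+ libraries. The groups did not overlap, and the ALDH- library of C30 was the highest. RBPJ fell by 2.06 on the log2 scale, to 0.24 times the ALDH- level (SE 0.35, adjusted p = 0.0126, and 0.0031 with the block). It was no longer called when C29 ALDH+ was left out (adjusted p = 0.0534), nor on log2(TPM + 1) with no filter on low values (0.0687).

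RBPJ has 3 annotated transcripts, and all were lower. The longest annotated for RBPJ, ENSGALT00000100430 (2953 bases), had 999, 667 and 1114 estimated counts in ALDH- and 344, 150 and 329 in ALDH+ libraries (log2 change -1.92, SE 0.37, adjusted p = 0.041 in edgeR across 18368 transcripts, and 0.0355 with the block). ENSGALT00000067531 (2516 bases) had 206, 314 and 646 counts in ALDH- and 130, 78 and 99 in ALDH+ libraries (log2 change -2.15, SE 0.54, adjusted p = 0.0997). The shortest, ENSGALT00000023206 (2429 bases), had 28, 24 and 15 counts in ALDH- and 0 in every ALDH+ library. This transcript passed the filter through the ALDH- group alone. Against a floor of 3 counts over the ALDH+ group it was at least 22.2-fold lower (adjusted p = 0.0376, and 0.133 with the block). Of 14 member transcripts tested, these 2 were called, ENSGALT00000100430 and ENSGALT00000023206, against 3.38% of all transcripts (2.98% lower; 2.22% with the block, where ENSGALT00000100430 alone was called), and neither call held without any 1 of the 6 libraries. The largest part of RBPJ TPM came from ENSGALT00000100430 in every library (58.7 to 78.1% in ALDH- and 61.7 to 73.6% in ALDH+). How estimated counts divide between transcripts that share sequence cannot be checked from these tables.

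**Figure D4:**
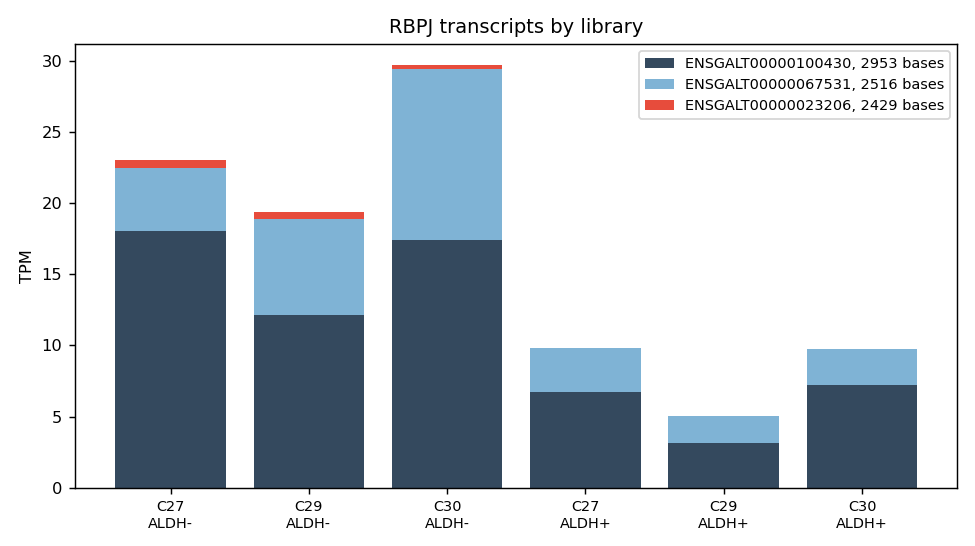
TPM of the 3 RBPJ transcripts (stacked bars, y axis from 0) in each library. The summed level is lower in every ALDH+ bar, and the 2429-base transcript, 0.28 to 0.615 TPM in the ALDH- libraries, is at 0 in the ALDH+ libraries.

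DTX1, a Deltex ubiquitin ligase, was scarce in ALDH- cells (28, 19 and 17 counts in C27, C29 and C30) and almost absent from ALDH+ counts (3, 2 and 0). It fell by 3.74 on the log2 scale (SE 0.76, adjusted p = 0.0254, and 0.0197 with the block). The call ended without any of the ALDH- libraries (adjusted p from 0.0511 to 0.09) and without C27 ALDH+ (0.082) or C29 ALDH+ (0.0855). HEY1, a repressor switched on by Notch, was not called. It stood at 2.5, 3.9 and 2.79 CPM in ALDH- and at 4.73, 7.18 and 4.24 CPM in ALDH+ libraries, with no overlap. C29 was highest in both fractions. The log2 change of HEY1 was 0.81 (SE 0.39, adjusted p = 0.285, and 0.115 with the block).

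Markers of white blood cells fell beside MFNG, RBPJ and DTX1. Of 19 macrophage markers tested, 18 were called lower both without and with the block, against 5.3 and 7.6% of all genes. The median log2 change of the 19 was -5.11, against 0 for all genes. The 18 included SPI1, a transcription factor of myeloid cells (-4.99, SE 0.37, adjusted p = 0.0011), and the receptor gene CSF1R (-4.53, SE 0.52, adjusted p = 0.00227). CD74 was lower in every line but not called (-2.10, adjusted p = 0.0718). MRC1, with 22 counts over the ALDH- and 18 over the ALDH+ libraries, was not tested. None of the 20 macrophage genes measured was at 0 over the ALDH+ libraries. Lymphocyte markers summed to 258 to 423 TPM in ALDH- and 30.7 to 42.6 TPM in ALDH+ libraries, and 6 of 10 tested were called lower in both fits. The 6 were PTPRC, CD5, BLK, IL2RG, IKZF1 and CXCR4, and IL2RG alone held 157 to 225 TPM in ALDH-. The B cell factor gene PAX5 had no counts, and the T cell genes CD3E (log2 change 1.29, adjusted p = 0.197) and LCK (-0.19, adjusted p = 0.839) were not called. Neither were CD3D (-0.58, adjusted p = 0.531) and CD40 (-0.53, adjusted p = 0.464). CD4, CD8A, CD28 and CD79B had too few counts to be tested. Heterophil and mast cell markers summed to 1359 to 12718 TPM in ALDH- and 60.8 to 238 TPM in ALDH+ libraries. Of 5 tested, 4 were called lower without the block. With the block all 5 were, including MMP9 (-1.41, adjusted p = 0.00553). Most of this sum was S100A12, at 1073 to 11864 TPM in ALDH- and 31.7 to 185 TPM in ALDH+ libraries. Among the markers that fell, CD14, TIMD4, CD5 and KIT had 13 counts or fewer in each ALDH+ library. They passed the filter on low counts through the ALDH- group alone, and their calls are not independent of it. The part of white blood cells in the differences of the Notch genes was not tested. In bulk RNA, fewer cells of a type and less RNA per cell cannot be told apart.

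Other marker lists moved less. Fibroblast and pericyte markers summed to 3650 to 13232 TPM in ALDH- and 11840 to 21254 TPM in ALDH+ libraries. None of 12 tested was called without the block in edgeR (5 had an unadjusted p under 0.05), and 5 rose with it. Of all 12811 genes, 2637 had an unadjusted p under 0.05 without the block. Mesothelial markers summed to 30.3 to 97.6 TPM in ALDH- and 146 to 221 TPM in ALDH+ libraries. Of 5 tested, WT1 and LRRN4 rose with the block. Of 4 epithelial markers tested, the cadherin gene CDH1 fell (-4.08, adjusted p = 0.0471) and KRT18 rose with the block (1.25, adjusted p = 0.0224). The endothelial markers CDH5, KDR, TEK, VWF and SOX17 had 27 counts or fewer in every library. Of 4 tested, FLT1 rose (0.99, adjusted p = 0.0455), PECAM1 fell (-2.98, adjusted p = 0.0069) and ERG rose with the block (1.23, adjusted p = 0.0251). The endothelial list summed to 23.5 to 62.1 TPM in ALDH- and 32.9 to 56.4 TPM in ALDH+ libraries. Of 7 muscle actin and contractile genes, 2 rose without the block and 3 with it, and the list summed to 2512 to 4227 TPM in ALDH- and 8661 to 10639 TPM in ALDH+ libraries. The part of these cell types in the rise of JAG1 and JAG2 was not tested.

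The wider pathway was described from a list of 79 further gene IDs, of which 72 passed the filter on low counts. Of these, 1 rose and 1 fell without the block, where 0.835% of all genes were called higher and 5.3% lower. With the block 10 rose and 3 fell, against 5.92% higher and 7.6% lower of all genes. The median log2 change was 0.26, against 0 for all genes. Among 10 other ligands and binding proteins tested, with matrix proteins but no Notch receptor among them, the median was 1.33. NOV, a secreted protein reported to bind NOTCH1, was the gene that rose in both fits, from 22438, 15750 and 16333 counts in ALDH- to 52352, 46869 and 66022 in ALDH+ libraries. No ALDH+ library overlapped with the ALDH- range, and NOV rose by 1.45 on the log2 scale (SE 0.28, adjusted p = 0.019) and by 1.44 with the block (adjusted p = 0.0152, and 0.0501 without C27). The call of NOV ended without either fraction of C29 (0.103 and 0.0561) or the ALDH- library of C30 (0.0557). A second gene ID, named CCN3 (the current human symbol of NOV), had 59 to 4414 counts and was not called (log2 change 1.61, SE 1.29, adjusted p = 0.517). With the block the change of CCN3 was 2.51 (SE 0.83, adjusted p = 0.091). The matrix protein genes MFAP2 (1.08, adjusted p = 0.0198), MFAP5 (1.61, adjusted p = 0.00696) and THBS2 (1.52, adjusted p = 0.00991), whose products have been reported to interact with Notch proteins, rose with the block, and MFAP5 is also on the fibroblast list. The call of MFAP2 ended without C27 (0.0981), and those of MFAP5 and THBS2 held without any 1 line. With the block and without C27, 7.92% of all genes were called.

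None of 7 cleavage genes was called in edgeR in either fit (1 had an unadjusted p under 0.05 in each). Of all 12811 genes, 2637 had such a p without the block and 3908 with it. DESeq2 without the block called 15 genes of the whole list and 10.3% of all genes, and these were not counted by role. ADAM10, a sheddase that cuts the receptor, stood at -0.15 (SE 0.21, adjusted p = 0.725, and 0.651 with the block). Of 8 other glycosylation genes, the xylosyltransferase gene GXYLT2 rose with the block (1.16, SE 0.25, adjusted p = 0.0258, and 0.0664 without C27). POFUT1, which adds the fucose that fringes extend, was not called (0.31, SE 0.22, adjusted p = 0.461, and 0.375 with the block). Of 17 traffic and ubiquitin genes, the ubiquitin ligase gene NEDD4 rose (0.99, adjusted p = 0.0493) and CBL, another ubiquitin ligase gene, fell (-1.32, adjusted p = 0.00984), both with the block. Of 18 nuclear cofactor genes, the coactivator gene MAML2 (1.12, adjusted p = 0.0201) and the corepressor gene CTBP2 (1.03, adjusted p = 0.026) rose with the block, and the corepressor gene TLE4 fell (-1.07, adjusted p = 0.0225). With the block, the calls of NEDD4 (0.113), CBL (0.0605), MAML2 (0.0716), CTBP2 (0.0962) and TLE4 (0.14) ended without C27. Those of NEDD4 (0.147), CTBP2 (0.062) and TLE4 (0.0574) also ended without C30. With the block, 7.92% of all genes were called without C27 and 9.6% without C30, against 13.5% with all lines.

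The next list joins target genes with HES, HEY and related genes that need not be targets. Of its 12 genes tested, 1 fell without the block, and 2 rose and 1 fell with it. The gene that fell in both fits was HELT, listed as a relative of the HES genes. HES1, a direct target, had 566, 216 and 376 counts in ALDH- libraries and 580, 149 and 669 in ALDH+ libraries (log2 change 0.09, SE 0.51, adjusted p = 0.94, and -0.05 with the block). The groups overlapped, and C29 was lowest in both fractions. NRARP, another direct target, had 13, 1 and 0 counts in ALDH- and 22, 9 and 30 in ALDH+ libraries (log2 change 2.02, SE 1.03, adjusted p = 0.318, and 2.27 with the block, adjusted p = 0.164). Without C27 ALDH- the change of NRARP was 4.81 (adjusted p = 0.0448), in a fit that called 8.61% of all genes. The ALDH- libraries left in that fit held 1 and 0 counts of NRARP. It thus passed the filter through the ALDH+ group alone, and the call is not independent of the filter. This was the only call of NRARP in 19 alternatives. HES4 had 725, 627 and 679 counts in ALDH- and 1490, 1565 and 3979 in ALDH+ libraries. HEY2 had 186, 176 and 158 counts in ALDH- and 399, 302 and 487 in ALDH+ libraries. Both genes, of the HES and HEY repressor families, were separated without overlap between groups in CPM. HES4 rose by 1.47 (SE 0.29, adjusted p = 0.0209) and HEY2 by 1.00 (SE 0.25, adjusted p = 0.043) with the block, while without it their adjusted p values were 0.0642 and 0.0855. The blocked call of HEY2 ended without C27 (0.159) or C30 (0.146), and that of HES4 held without any 1 line (0.0051 to 0.0252). Of all genes, 7.92% were called with the block without C27, 18.1% without C29 and 9.6% without C30. HELT, a HES-related repressor gene, fell from 16, 68 and 343 counts in ALDH- to 6, 4 and 3 in ALDH+ libraries (log2 change -5.32, SE 1.22, adjusted p = 0.0415, and -4.43 with the block, adjusted p = 0.0267). Its value was set largely by the ALDH- library of C30 (-3.37 without it, adjusted p = 0.0991), and without the block its call held only without the ALDH- library of C27 when single libraries were left out. With the block it held without any 1 line (0.00325 to 0.049). HELT passed the filter on low counts through the ALDH- group alone.

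**Figure D5:**
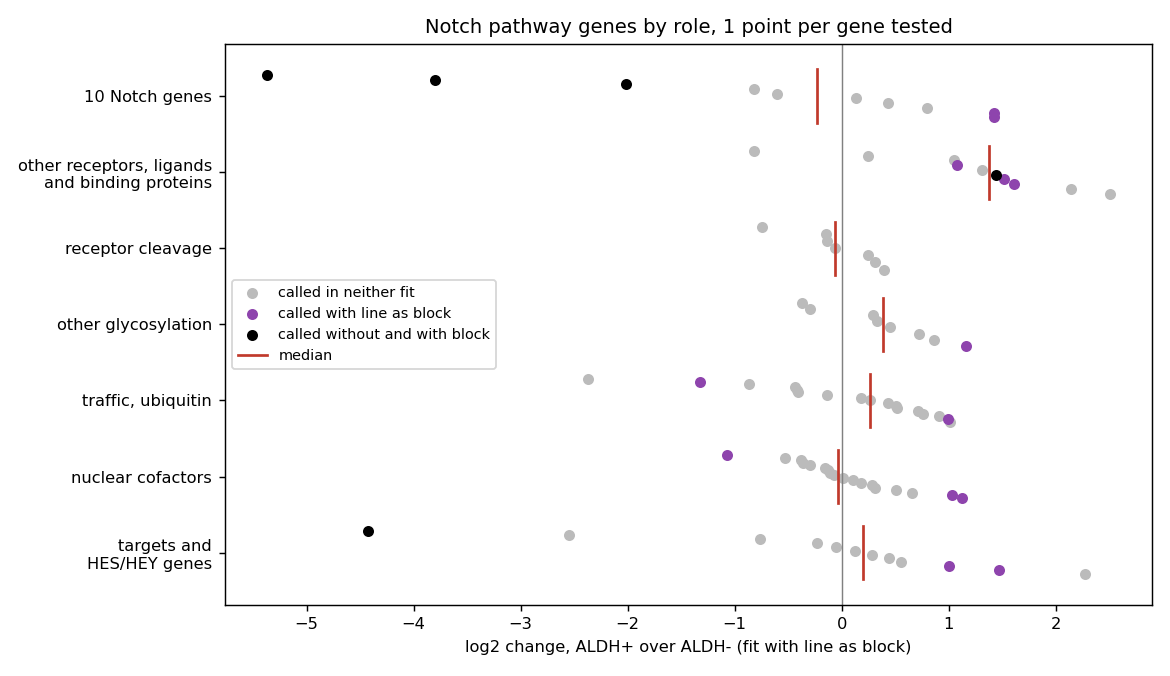
Log2 change, ALDH+ over ALDH-, with the line as a block (x axis), for the 10 genes and the further pathway genes tested, grouped by role; 1 point per gene ID and a red bar for each group's median. Black points were called in both fits (RBPJ, DTX1, MFNG, NOV and HELT), purple points with the block only and grey points in neither.

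For each called gene, the genes with the most similar pattern over the 6 libraries were sought among 9787 named genes with a mean of at least 1 CPM. For MFNG these were UGT8 (Pearson r = 0.999 in log2 CPM), DOCK2 (0.996) and TEC (0.995). For RBPJ they were PHACTR1 (0.999), ASPA (0.998) and ATP6V1C1 (0.997), and for DTX1 they were HTRA1 (0.999), TLR4 (0.998) and ETV7 (0.997). JAG1 was closest to DGKD (0.998), PLCD1 (0.995) and PPP4R1 (0.99), and JAG2 to XKR5 (0.987), CDH11 (0.982) and TWF1 (0.978). With so many genes and 6 points that share the split by fraction, high values of r are usual, and they are given as a description.

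Between the lines, none of the 10 genes was called in edgeR with the fraction in the model, where 0.367% of all genes were called. At an unadjusted p under 0.05 there were 2, JAG1 and NOTCH2, and the share of all genes at that threshold is not given. JAG1 came nearest (unadjusted p = 0.00271, adjusted p = 0.102), with C29 low in both fractions. A DESeq2 likelihood ratio test called JAG1 (adjusted p = 0.000709, with 7.56% of all genes called). EdgeR called JAG1 without C29 ALDH- (0.0213) or C30 ALDH- (0.0273), where 15.1 and 3.64% of all genes were called. NOTCH2, highest in C27, had an unadjusted p of 0.0372 and an adjusted p of 0.227 in edgeR.

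The authors' deposited table tests each transcript and gives both an adjusted p and a false discovery rate. In the authors' deposited table the main MFNG transcript stands at a log2 change of -5.3 (SE 1.08, adjusted p = 0.024) and the longest RBPJ transcript at -2.0 (SE 0.4, adjusted p = 0.0307), and the adjusted p of every other transcript of the 10 genes with a value is 1. By the false discovery rate of the authors' deposited table, JAG2 stands at 0.0398 (log2 change 1.4, SE 0.47), LFNG at 0.0423 (-0.8, SE 0.28), the main DTX1 transcript at 0.0304 (-4.9, SE 1.61) and JAG1 at 0.1353 (1.5, SE 0.65). The other RBPJ transcripts, ENSGALT00000023206 and ENSGALT00000067531, stand at 0.0011 and 0.0035 by that rate.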

How the data were processed

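RNA of the 6 sorted fractions was read as 125-base paired ends, per the labels. The submitters' processing notes name FastQC, Trimmomatic, HISAT2, kallisto, DESeq2 and the build GRCg6a, with no versions or order. The authors deposited estimated counts and TPM per transcript, with transcript lengths (other values) in bases. The authors' deposited comparison table, per the file headers, holds size-factor scaled values (a signal), a fold change (ratio), log2 fold changes, a test score and p-values. The files' gene annotation carries no sequence used here, so no sequence or coordinate is printed.

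Estimated counts were summed per gene ID over 28756 transcripts and rounded. The 319 transcripts without a gene ID, 0.285 to 0.328% of counts, were left out. Genes were filtered with edgeR's filterByExpr (minimum count 10, minimum total 15), scaled by TMM (factors 0.832 to 1.118) and tested with the quasi-likelihood test of edgeR 4.0.16 in R 4.3.3, with Benjamini-Hochberg adjustment over the 12811 genes tested. Unless a tool is named, adjusted p values are from edgeR. An SE beside an edgeR value is not an output of edgeR. It was computed as the absolute log2 change divided by the square root of the F value of the test. It therefore restates the test result, and for genes with few counts such as MFNG and DTX1 it does not measure the spread between libraries. Alternatives used DESeq2 1.42.0, limma 3.58.1 (voom, and log2 TPM with pseudocounts of 1 and 0.1), other scalings and filters, and each library or line left out. The scripts were tested on simulated data. SD and n refer to the 3 lines of a fraction. At 22170788 to 26747453 counts per library, genes such as DTX1 rest on 28 counts or fewer.

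The pairing comes from the labels: both fractions of a number are the same cell line. Their deviations from the group means had a Pearson r of 0.66 in C27, 0.17 in C29 and 0.49 in C30. Blocked values are given beside the results for the 10 genes and the named pathway genes.

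All 10 genes are named. Of the wider pathway list, those called in either fit are named, with HES1 and NRARP whatever their values. For each called gene of the 10, the 3 genes with the most similar pattern are named. ADAM10, POFUT1, DLL1, DLL4, CCN3 and the marker genes were named outside this rule, for their roles, after their values were seen. The 10 genes, the pathway list and the marker lists were chosen with earlier results of these data known.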

Additional observations from a re-analysis of the deposited data

Results flagged for a closer look

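For 3 genes the difference between fractions did not have the same sign in every line. For NOTCH1 and RFNG the value of the other sign, in C27, was too small to count as a movement. The difference between lines was not tested, since each line has 1 library per fraction. NOTCH1 differed between ALDH+ and ALDH- by 0.04 in C27, -0.43 in C29 and -1.40 in C30 (log2 CPM, prior count 2). RFNG differed by -0.03 in C27, 0.35 in C29 and 0.08 in C30. In TPM, RFNG was higher in ALDH+ in every line (11.9, 7.57 and 5.25 in ALDH- and 14.3, 11.3 and 9.59 in ALDH+ libraries). HES1 differed by -0.14 in C27, -0.55 in C29 and 0.53 in C30.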

How the results depend on the processing

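No gene of the 10 changed direction under the alternatives run. Of the 10, 3 were called without the block, 5 with it and 6 in DESeq2 with the block. With a minimum count of 50, where MFNG and DTX1 were not tested, 1 was called. Of all genes, these 4 fits called 6.14, 13.5, 16.3 and 6.34%. Leaving out 1 library gave 1 to 3 (1 without C29 ALDH+), against 3.39 to 8.61% of all genes. Leaving out a line with the block gave 2 to 6, against 7.92 to 18.1% of all genes. In edgeR the block changed the calls of JAG1 and JAG2 and no other among the 10. In DESeq2 it changed those of JAG1 and LFNG. Of the wider list, 2 genes were called without the block, 13 with it, 15 in DESeq2 and 19 in DESeq2 with the block. Limma-voom called 1, a minimum count of 50 left 1, log2(TPM + 1) gave 4 and log2(TPM + 0.1) gave 5. Of all genes, DESeq2 called 10.3%, and 16.3% with the block. The share of all genes was 6% in limma-voom and 6.34% with a minimum count of 50. It was 6.63% on log2(TPM + 1) and 6.38% on log2(TPM + 0.1). Leaving out a line with the block gave 8, 10 and 21, against 7.92 to 18.1% of all genes. Leaving out 1 library gave 0 to 9 in edgeR, against 3.39 to 8.61% of all genes. Without C29 ALDH- and without C30 ALDH-, 18 and 14 had an unadjusted p under 0.05, respectively. The share of all genes at that unadjusted threshold is not given.

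Over all genes, 786 were called without the block (107 higher, 679 lower), 1732 with it (758 higher, 974 lower), 1655 in DESeq2 (626 higher, 1029 lower) and 2612 in DESeq2 with the block. On log2(TPM + 1) the split was 268 higher and 505 lower, with the median gene at 0.36. Leaving out 1 library gave 443 to 1123, and a line with the block 1010, 1242 and 2354. Of the transcripts of the 10 genes, 2 were called without the block, 1 with it and 1 by library size only. With a library left out, 0 to 1 were called (7 or 8 had an unadjusted p under 0.05). Of all transcripts, the shares called were 3.38, 2.22, 3.2 and 0.633 to 3.51%. Between lines, 0 of the 10 were called in edgeR (2 at an unadjusted p under 0.05), 1 in DESeq2 and 0 to 1 with a library left out. Of all genes, 0.367% were called between lines in edgeR, 7.56% in DESeq2 and 0.345 to 15.1% with a library left out. For these transcript and line tests, the shares of all transcripts and genes at an unadjusted p under 0.05 are not given. The log2 ratio of JAG1 to JAG2, at -0.00, ran from -0.79 to 0.61 with 1 library left out, and turned to 0.49 without C27 ALDH-, 0.29 without C30 ALDH- and 0.61 without C29 ALDH+. HES1, at 0.09, ran from -0.33 to 0.48 with 1 library left out, and turned to -0.05 with the block, -0.02 in DESeq2 with the block, -0.04 in limma-voom, -0.18 without C29 ALDH-, -0.33 without C30 ALDH+ and -0.35 with the block and without C30. The cause was not tested.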
